A study of Rattus norvegicus with 12 samples.

Results

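Aminoacyl-tRNA synthetases are the enzymes that join each amino acid to its tRNA, and the charged tRNA then carries the amino acid to the ribosome. A mammalian cell holds a cytosolic set, which serves the translation of nuclear messages, and a mitochondrial set, which is also encoded in the nucleus, is imported, and serves the few messages of the mitochondrial genome. Several cytosolic synthetases sit together with scaffold proteins in the multisynthetase complex, while the others are free, and many cytosolic genes are known as targets of ATF4, the transcription factor of the amino acid response. The genes described here were taken by symbol, with earlier results of these data known, from a list of 34 synthetase symbols. Of these, 32 had a probe set annotated with that symbol alone and were measured among 14217 genes. The measured genes were all 19 listed cytosolic enzymes and 13 of the 15 listed mitochondrial enzymes, whose symbols end in 2. Lars2 and Mars2, the mitochondrial leucyl and methionyl enzymes, were not analysed here. Gars1 and Kars1 each give rise to both a cytosolic and a mitochondrial protein and were counted with the cytosolic genes.

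The cells were F111, an established rat fibroblast line of the Fischer strain, untreated in both groups and grown in medium with serum. NA16 cells had been plated in suspension, without attachment, for 16 h, and A16 cells had been plated on plastic for the same time and are the control. The paper reports that most suspended cells had lost viability by then. It describes the cells still alive as rich in apoptotic proteins and as having fragmented DNA. The part of cell death in the results was not tested. Total RNA was labelled and hybridised to Affymetrix rat arrays, and in each state 3 arrays were run, for the biological replicates 1 and 2 and for a technical replicate 2. Technical replicate 2 was averaged with biological replicate 1, which gave n = 2 per state, and the sources used here do not state what made a repeat biological, so the p-values measure only the spread between these samples.

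The arrays had close medians, between 152.5 and 157.9 on the linear RMA scale. Over all probe sets the NA16 arrays of biological replicate 2 and technical replicate 2 were nearest to each other, with an SD of the log2 difference of 0.175, against 0.322 and 0.269 to the NA16 array of biological replicate 1. That array was the one farthest from the closest pair of NA16 arrays for 25 of the 32 synthetases (78.1%) and for 55.6% of all genes. Beta-actin changed by -1.22 at its 5′ control probe set and by -0.72 at its 3′ control probe set, while GAPDH changed by 0.19 and 0.24, and the part of RNA quality in the results was not tested. Of 10 fibroblast markers, Vim, Col1a1, Col1a2, Fn1 and S100a4 had log2 intensities between 13.6 and 14.8 in both states, and Dcn was dim at 5.81 in NA16 and 5.23 in A16. Of the 10, 4 were called higher in NA16 and 0 lower, beside 21.9% and 16.9% of all genes. The rises were those of Pdgfrb by 1.40, Pdgfra by 0.78, Dcn by 0.58 and Thy1 by 0.47. Of 6 macrophage markers 2 were called higher in NA16 (Cd68 and Lyz2), and of 5 epithelial markers 2 (Krt8 and Epcam). Of 3 measured endothelial markers 1 was called higher (Pecam1). In these lists 0 were called lower, beside the same shares of all genes. Ptprc, Csf1r and Adgre1 lay at or below 5.82 in both states and Cdh1 at or below 5.30, while Cd14 stood at 10.17 in NA16 and 10.52 in A16. Of the markers called higher, Krt8 stood at 11.38 in NA16 and 10.12 in A16. Lyz2 stood at 8.21 and 7.06, and Cd68 at 8.17 and 6.72. The part of other cell types was not tested. In RNA of whole cultures, fewer cells that hold a transcript and less of it per cell cannot be told apart.

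In suspension the cytosolic synthetases were lower or not called, and the mitochondrial synthetases moved in both directions. A gene was called at a limma adjusted p below 0.05 over all 14217 genes, and 38.9% of all genes were called, 21.9% higher and 16.9% lower in NA16. Of the 19 cytosolic genes 7 were lower, which is 36.8%, 0 were higher and 12 were not called. Without the NA16 array of biological replicate 1 the cytosolic counts were 8 lower and 1 higher, Qars1. At an unadjusted p below 0.05 by limma, 10 cytosolic genes were lower and 0 higher, beside 19.8% and 25.5% of all genes. Of the 13 mitochondrial genes 5 were higher, which is 38.5%, 2 were lower, which is 15.4%, and 6 were not called. The median log2 change was -0.29 over the cytosolic genes and 0.10 over the mitochondrial genes, beside 0.01 over all genes. The change of each gene is NA16 minus A16 on the log2 scale of the RMA intensities, on which -1 stands for a level halved.

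**Figure D1:**
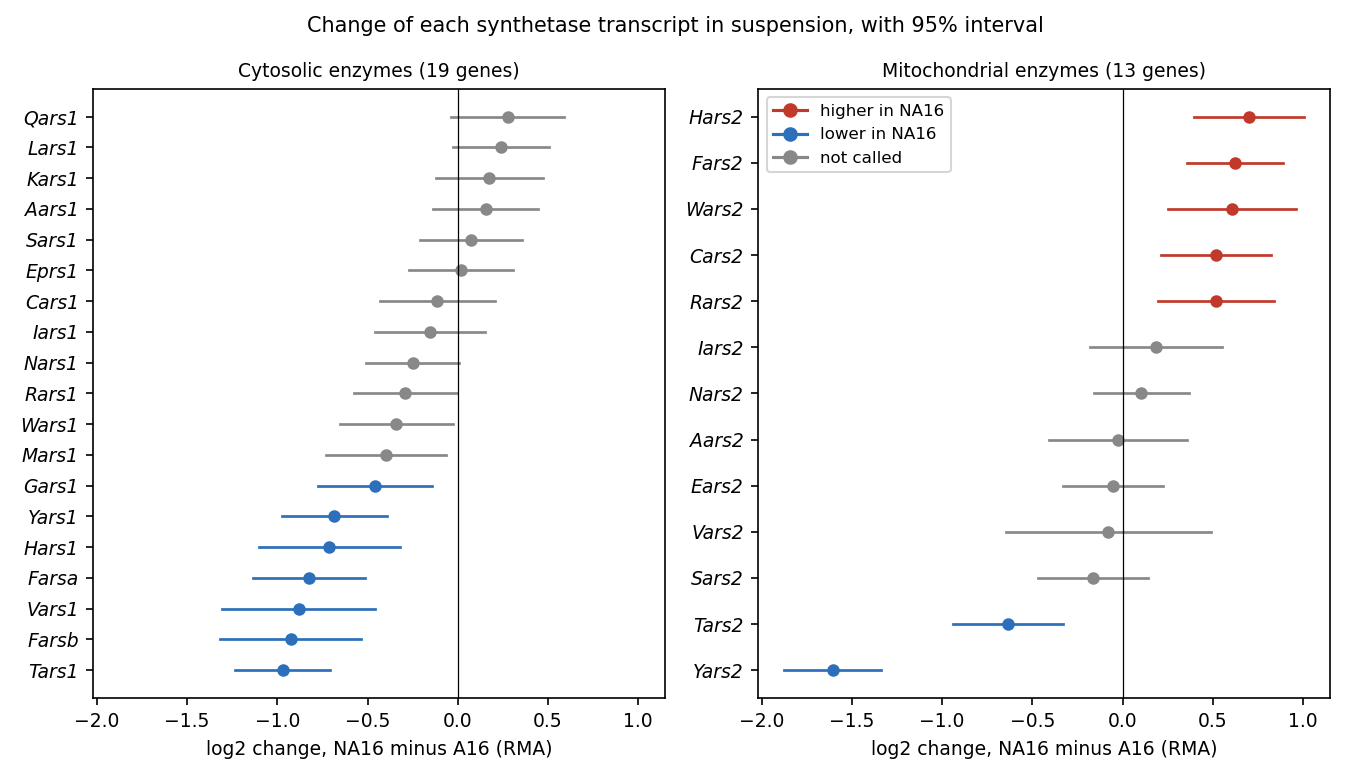
Log2 change of each measured synthetase (points, NA16 minus A16, horizontal axis) with its 95% interval, for 19 cytosolic genes on the left and 13 mitochondrial genes on the right. The cytosolic changes run between 0.28 (Qars1) and -0.97 (Tars1), and the mitochondrial changes between 0.70 (Hars2) and -1.61 (Yars2).

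The same was seen array by array. Taken as the deviation of each gene from its A16 mean, the median cytosolic synthetase lay at -0.35, -0.26 and -0.32 on the NA16 arrays of biological replicate 1, biological replicate 2 and technical replicate 2, against 0.00, -0.03 and 0.06 on the A16 arrays. All 3 NA16 arrays were thus below all 3 A16 arrays. The median mitochondrial synthetase lay at -0.03, 0.21 and 0.12 on the NA16 arrays, against -0.04, -0.02 and 0.03 on the A16 arrays. Here the NA16 array of biological replicate 1 fell among the A16 arrays. Over all genes the arrays of the 2 states did not overlap in 51.7%. The arrays of 11 cytosolic genes did not overlap with NA16 lower, beside 23.9% of all genes, and those of 1 cytosolic gene, Lars1, did not overlap with NA16 higher, beside 27.8% of all genes. In the mitochondrial set 5 genes did not overlap with NA16 higher and 2 with NA16 lower.

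Among the mitochondrial enzymes Yars2, the tyrosyl enzyme, changed most. Its log2 intensity was 7.88, 7.72 and 7.71 on the NA16 arrays of biological replicate 1, biological replicate 2 and technical replicate 2, against 9.47, 9.32 and 9.35 on the A16 arrays. Every NA16 array was far below every A16 array. The means were 7.76 ± 0.05 in NA16 and 9.37 ± 0.06 in A16 (SD, n = 2 each), a fall by 1.61 on the log2 scale, or 3.05-fold (95% interval -1.88 to -1.34, limma adjusted p = 0.000113). Yars2 was the only synthetase called with at least a 2-fold change, a class that held 6.12% of all genes on the lower side and 7.74% on the higher side. The cytosolic tyrosyl enzyme, Yars1, fell by 0.68, with NA16 at 11.54 ± 0.07 and A16 at 12.22 ± 0.14 (SD, n = 2 each, limma adjusted p = 0.0045).

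Threonine was the other amino acid whose cytosolic and mitochondrial enzymes were both lower. Tars1 had log2 intensities of 10.49, 10.54 and 10.50 on the NA16 arrays, against 11.43, 11.46 and 11.61 on the A16 arrays. It fell by 0.97 ± 0.11 (SE), close to 2-fold, and with an adjusted p of 0.000648 it had the largest called change of the cytosolic set. Tars2, its mitochondrial counterpart, fell by 0.63 ± 0.13 (adjusted p = 0.0074), and its other probe set fell by 0.76 and was called as well.

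Histidine and phenylalanine showed the opposite arrangement, a cytosolic enzyme that was lower beside a mitochondrial enzyme that was higher. Hars1, the cytosolic histidyl enzyme, had log2 intensities of 10.56, 10.23 and 10.81 on the NA16 arrays, against 11.23, 11.19 and 11.06 on the A16 arrays. The NA16 arrays spread widely but all stayed below the A16 arrays, and Hars1 fell by 0.71 ± 0.16 (SE, limma adjusted p = 0.0125). Hars2, the mitochondrial histidyl enzyme, had 9.17, 9.27 and 9.18 on the NA16 arrays, against 8.39, 8.64 and 8.43 on the A16 arrays. It rose by 0.70 ± 0.13 (adjusted p = 0.0047) with no overlap between the states. Each of these genes has another probe set on the array, and it was called in the same direction, at -0.64 for Hars1 and 0.68 for Hars2. The call of Hars1 was lost without A16 replicate 1 (adjusted p = 0.0519), without A16 replicate 2 (0.0635) and without NA16 replicate 2 (0.0786).

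Hars1 and Hars2 lie head to head on rat chromosome 18, transcribed away from each other, so the pair that moved in opposite directions shares the stretch between them. The 97 bases between the annotated ends of the 2 genes are shown because both are transcribed outward from it. The sequence is from RefSeq, build GRCr8, chr18:28672713-28672809, on the plus strand, 5′ to 3′, and the capitals mark a match to the ETS core CCGGAAG, read here on the minus strand.
Hars1-Hars2 interval: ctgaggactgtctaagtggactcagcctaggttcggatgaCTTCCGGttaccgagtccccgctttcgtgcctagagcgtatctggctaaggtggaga
The interval has a GC content of 55.7%. The ETS core, searched on both strands, was found in 9.22% of 27457 RefSeq promoter windows of 300 bases, in 9 of 17 cytosolic synthetase windows and in 5 of 13 mitochondrial ones. The windows of both Hars1 and Hars2 also held a match past the interval, 41 bases before the RefSeq start used for Hars2.

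Cytosolic phenylalanyl-tRNA synthetase is built from an alpha subunit, Farsa, and a beta subunit, Farsb, and both transcripts were lower. Farsa had log2 intensities of 8.73, 9.21 and 9.25 on the NA16 arrays, against 10.01, 9.85 and 9.99 on the A16 arrays, and fell by 0.83 ± 0.13 (SE, limma adjusted p = 0.0025). Farsb had 10.66, 10.38 and 10.33 on the NA16 arrays, against 11.58, 11.14 and 11.59 on the A16 arrays, and fell by 0.93 ± 0.17 (adjusted p = 0.0043). In both subunits the groups stayed apart, and the NA16 array of biological replicate 1 was the lowest for Farsa and the highest NA16 array for Farsb. Fars2, the single-chain mitochondrial enzyme, had 8.95, 8.90 and 8.95 on the NA16 arrays, against 8.27, 8.26 and 8.43 on the A16 arrays. It rose by 0.62 ± 0.11 (adjusted p = 0.0044), with the NA16 arrays within a narrow band above all A16 arrays. Farsb has another, dimmer probe set, which changed by -0.19 and was not called with RMA but fell by 1.11 and was called with PLIER.

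**Figure D2:**
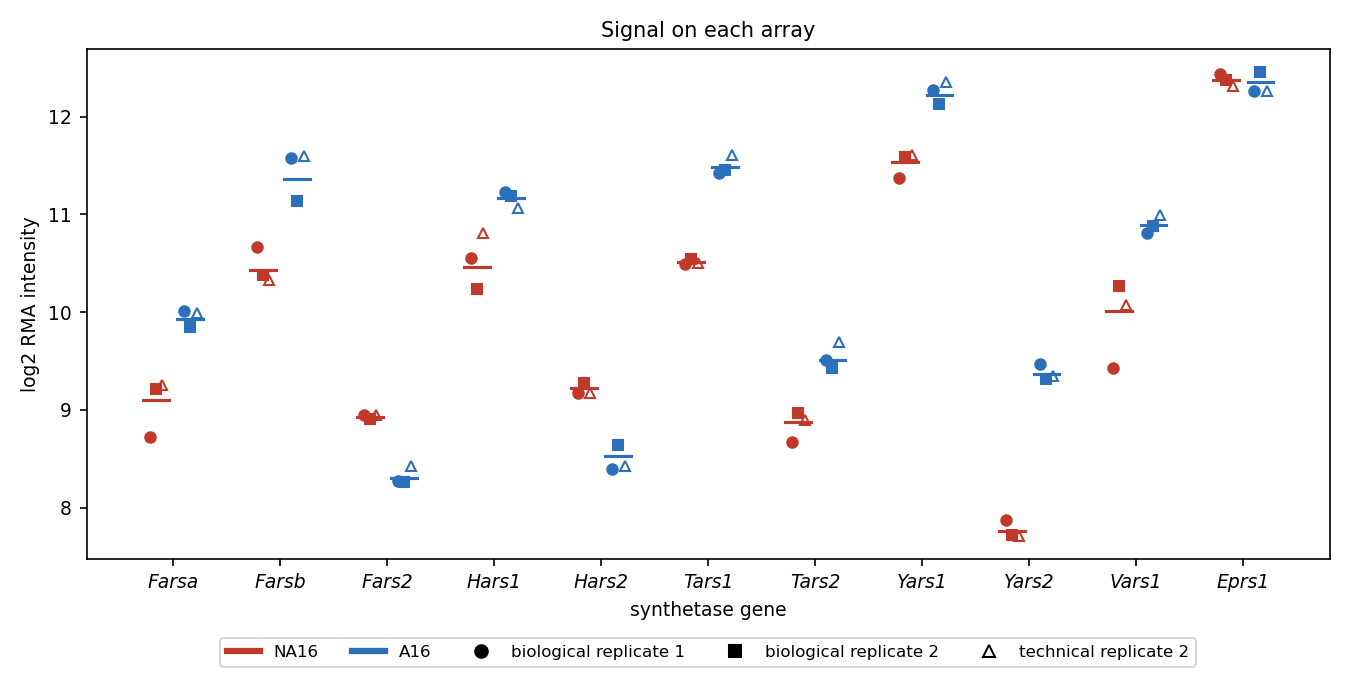
Log2 RMA intensity on each array (vertical axis) for 11 synthetases, with NA16 in red left of A16 in blue, bars at the mean of the 2 replicates and open triangles for technical replicate 2. Fars2 and Hars2 lie higher in NA16 and Farsa, Farsb and Hars1 lower, Eprs1 overlaps, and heights of different genes are not comparable because each has its own probes.

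Over all amino acids with both enzymes measured, 13 amino acids gave 14 pairs, since Farsa and Farsb were each set beside Fars2. The cytosolic change lay below the mitochondrial change in 10 pairs and above it in 4, with a median difference of -0.49. The pairs called in opposite directions were the 3 described above, and the pairs lower in both were those for threonine and tyrosine. The 4 pairs with the cytosolic change above the mitochondrial change were those for tyrosine, serine, alanine and glutamate, and only the tyrosyl pair was called. These are counts of pairs, and the difference within a pair was not tested.

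**Figure D3:**
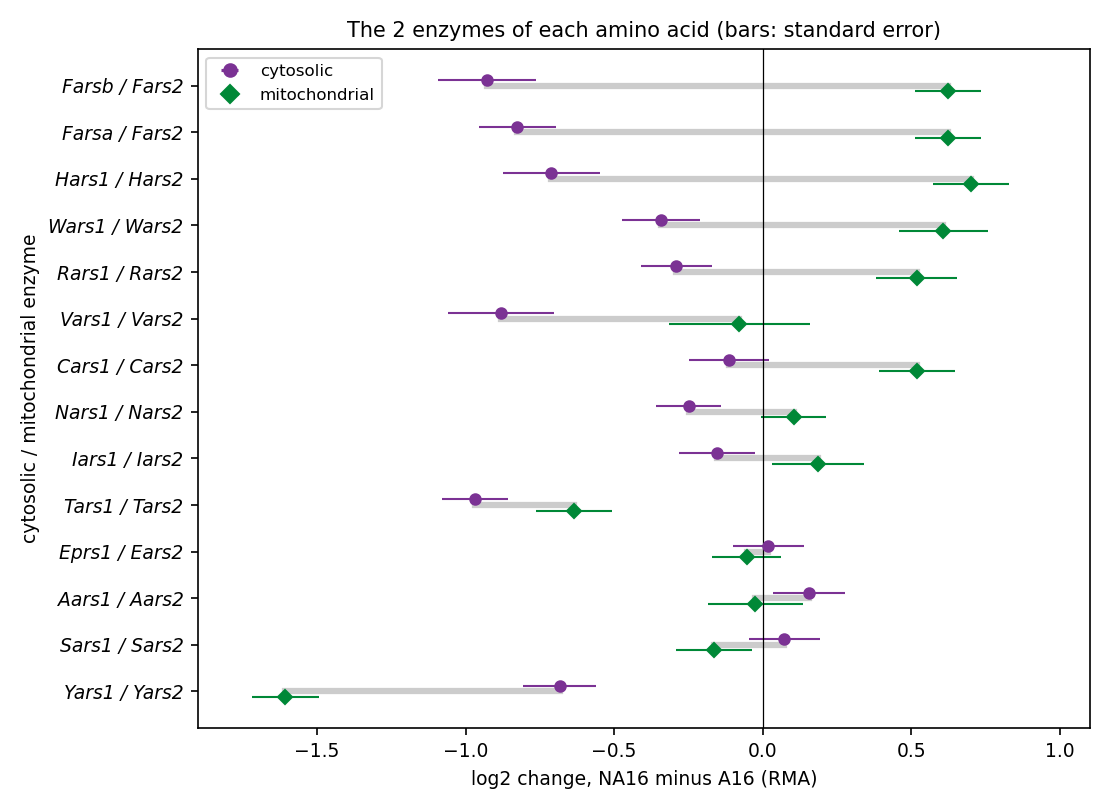
Log2 change (horizontal axis, NA16 minus A16) of the cytosolic enzyme (circles) and the mitochondrial enzyme (diamonds) of each amino acid, with standard errors, ordered by the difference between them. The phenylalanyl and histidyl pairs at the top span 0, with 0.62 for Fars2 beside -0.93 for Farsb, and the tyrosyl pair at the bottom is reversed, with -1.61 for Yars2 and -0.68 for Yars1.

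The remaining mitochondrial calls were rises. Wars2, the tryptophanyl enzyme, rose by 0.61 ± 0.15 (SE, limma adjusted p = 0.0169), with NA16 at 8.62 ± 0.01 and A16 at 8.01 ± 0.27 (SD, n = 2 each). Cars2, the cysteinyl enzyme, rose by 0.52 ± 0.13 (adjusted p = 0.0171), and Rars2, the arginyl enzyme, rose by 0.52 ± 0.14 (adjusted p = 0.0214). These were the less firm mitochondrial calls. With technical replicate 2 left out, Rars2 was not called (limma adjusted p = 0.0626). The dimmer probe set of Wars2 rose by 0.70 and was not called with RMA (limma adjusted p = 0.0562), but was called with PLIER. Without A16 replicate 2 or without NA16 replicate 1, Cars2 and Rars2 were not called and 3 mitochondrial genes remained higher, and Wars2 was not called without A16 replicate 1.

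The other 6 mitochondrial genes were not called. Iars2 changed by 0.19, Nars2 by 0.10, Ears2 by -0.05, Vars2 by -0.08 and Sars2 by -0.16. Nars2 was the dimmest synthetase, at 5.76 in NA16 and 5.66 in A16, close to the lower end of the scale. There a constant, if one was added to all intensities, would understate a change. The change nearest 0 was that of Aars2, the alanyl enzyme, at -0.03, with 7.69, 8.23 and 8.14 on the NA16 arrays, against 7.86, 8.25 and 8.04 on the A16 arrays. Its arrays overlapped, and its 95% interval of -0.41 to 0.36 leaves room for a change in either direction. Vars2 had the widest interval, -0.65 to 0.49, and in both states its array of biological replicate 1 was the lowest.

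Of the cytosolic enzymes, Vars1, the valyl enzyme, fell by 0.88 ± 0.18 (SE, limma adjusted p = 0.0073). Its NA16 arrays read 9.42, 10.27 and 10.08, against 10.81, 10.88 and 11.00 on the A16 arrays. The array of biological replicate 1 was much the lowest, and the others were still below all A16 arrays. Gars1, the glycyl enzyme, fell by 0.46 ± 0.13 (adjusted p = 0.0312), with NA16 at 12.25 ± 0.20 and A16 at 12.71 ± 0.01 (SD, n = 2 each). Its call depended most on the arrays used and was kept in 11 of 17 alternatives. Without NA16 replicate 1 its change was -0.32 with an adjusted p of 0.318.

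The 12 cytosolic genes that were not called lay on both sides of 0. Mars1 changed by -0.40 (adjusted p = 0.0645), Wars1 by -0.34 (0.0849), Rars1 by -0.29 (0.106), Nars1 by -0.25 (0.122), Iars1 by -0.15 and Cars1 by -0.11. On the other side Sars1 changed by 0.07, Aars1 by 0.16, Kars1 by 0.17, Lars1 by 0.24 (0.150) and Qars1 by 0.28 (0.157). The change nearest 0 was that of Eprs1, the bifunctional glutamyl and prolyl enzyme, at 0.02, with 12.44, 12.37 and 12.32 on the NA16 arrays, against 12.26, 12.45 and 12.26 on the A16 arrays. Its arrays overlapped, with a 95% interval of -0.27 to 0.31.

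The cytosolic calls fell on the enzymes outside the multisynthetase complex. Of the 7 measured enzymes of the complex (Eprs1, Iars1, Kars1, Lars1, Mars1, Qars1 and Rars1) 0 were called, and of the 12 outside it 7 were lower, which is 58.3% beside 16.9% of all genes. The median change was 0.02 in the complex and -0.57 outside it. On the NA16 arrays the median enzyme outside the complex lay at -0.66, -0.47 and -0.36 from its A16 mean, while that of the complex lay at -0.07, 0.02 and -0.04. Outside the complex every NA16 median was below the A16 medians, which lay between -0.07 and 0.11. In the complex the NA16 medians lay close to those of the A16 arrays, between -0.07 and 0.01. The count of 0 does not mean that these enzymes kept their level: Mars1 had a 95% interval of -0.73 to -0.06 and that of Rars1 ran between -0.58 and a value just below 0, and 0 to 2 of the 7 were lower under the alternatives. At an unadjusted p below 0.05 by limma, 2 of the 7 were lower and 0 higher. Without the NA16 array of biological replicate 1, Rars1 was called lower and Qars1 higher, at 0.38. The difference between enzymes inside and outside the complex was not tested.

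Of the 3 scaffold proteins of the complex 2 were lower, beside 16.9% of all genes. Eef1e1, also known as AIMP3, which docks the methionyl enzyme, had 11.01, 10.55 and 10.66 on the NA16 arrays, against 12.02, 11.97 and 12.27 on the A16 arrays, and fell by 1.36 ± 0.14 (SE, limma adjusted p = 0.00045). Aimp2, the scaffold that binds the lysyl enzyme, had 10.98, 10.84 and 10.84 on the NA16 arrays, against 12.03, 11.74 and 12.20 on the A16 arrays, and fell by 1.05 ± 0.15 (adjusted p = 0.0016). Both were more than 2-fold lower with all NA16 arrays below all A16 arrays. Aimp1, which binds the arginyl enzyme and tRNA, changed by -0.27 ± 0.11 and was not called (adjusted p = 0.098), although its arrays did not overlap, and it was called lower without the NA16 array of biological replicate 1.

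**Figure D4:**
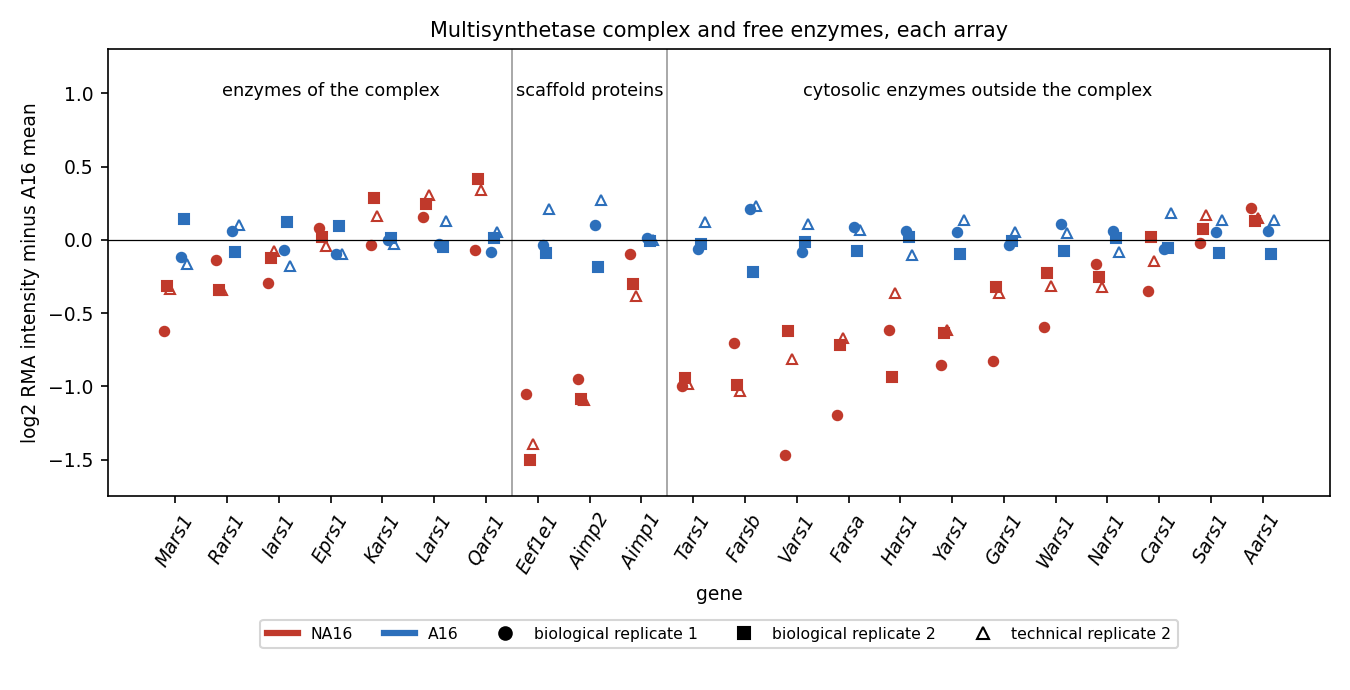
Log2 RMA intensity of each array minus the A16 mean of the gene (vertical axis), with NA16 in red left of A16 in blue, for the enzymes of the multisynthetase complex, its scaffold proteins and the other cytosolic enzymes. The changes of the complex enzymes run between 0.28 (Qars1) and -0.40 (Mars1). Eef1e1 and Aimp2 lie near -1.36 and -1.05, and 7 of the 12 enzymes outside the complex were called lower.

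By structural class, 2 of 9 cytosolic class I enzymes (22.2%) and 5 of 9 class II enzymes (55.6%) were lower, beside 16.9% of all genes. Eprs1, which holds a catalytic domain of each class, was counted in neither. The cytosolic class split overlaps the split by complex. Of the uncalled complex enzymes, Iars1, Lars1, Mars1, Qars1 and Rars1 are class I and Kars1 is class II. In the mitochondrial set 3 of 7 class I (42.9%) and 2 of 6 class II enzymes (33.3%) were higher, beside 21.9% of all genes. Of the 12 cytosolic genes known as ATF4 targets in mammalian cells 3 were lower (Tars1, Yars1 and Gars1), which is 25%. Of the other 7 cytosolic genes 4 were lower, which is 57.1%, beside 16.9% of all genes. These splits were not tested. The median change was -0.20 over the ATF4 targets and -0.71 over the other cytosolic genes.

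Of 11 measured genes of the amino acid response 7 were higher, beside 21.9% of all genes, and 2 were lower, beside 16.9%. Ddit3, the transcription factor CHOP, had 13.66, 13.50 and 13.51 on the NA16 arrays, against 10.58, 10.48 and 10.58 on the A16 arrays, a rise by 3.01 ± 0.11 (SE). Atf4 had 13.83, 14.01 and 14.08 on the NA16 arrays, against 12.79, 13.10 and 12.81 on the A16 arrays, and rose by 1.03 ± 0.14 (limma adjusted p = 0.0012). In both genes all NA16 arrays lay above all A16 arrays. Trib3, a pseudokinase induced by ATF4 and CHOP, rose by 2.05, and Atf3, a stress-induced transcription factor, rose by 1.51. Gcn1, a partner of the kinase GCN2 that senses uncharged tRNA, fell by 1.20. Asns, asparagine synthetase and a classical ATF4 target, had 10.87, 10.75 and 10.83 on the NA16 arrays, against 11.41, 11.29 and 11.42 on the A16 arrays. It fell by 0.56 ± 0.12 (adjusted p = 0.0085), on the side of the lower synthetases rather than of Atf4.

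ATF4 binds, with a C/EBP partner, to a composite element, which was searched as TGATGNAA on both strands of the RefSeq promoter windows, 250 bases before to 50 after the first listed start of each gene. Windows were found for 30 of the 32 synthetases, and none was found for Gars1 and Rars1. The element was in 7 of 17 cytosolic windows (41.2%), in 0 of 13 mitochondrial windows and in 3.82% of all 27457 windows. Of these, 6 are shown because they hold the same 8 letters or their reverse complement. Of these 6 genes Tars1 and Yars1 were called lower and the others were not called. Each line is 5′ to 3′ on the strand of the gene, from GRCr8, with the match in capitals.
Tars1, chr2:62114812-62114839, minus strand: tggcgtcccgTTGCATCAgctggttagc
Yars1, chr5:146820191-146820212, plus strand: cgagctcagcTGATGCAAcctg
Mars1, chr7:65023753-65023780, minus strand: cccgttccggTTGCATCAgcgtgggctc
Nars1, chr18:60275779-60275806, minus strand: ctaggtgatcTGATGCAAcgcttcagtc
Iars1, chr17:15193659-15193686, minus strand: actgtcagtaTTGCATCAcctccagacg
Cars1, chr1:208225335-208225362, minus strand: ggcgccgcggTTGCATCAgattctggaa
The match began 27 bases before the start in Tars1. Of the 7 genes with the element 2 were lower, Tars1 and Yars1, and the changes ran between -0.97 (Tars1) and 0.16 with a median of -0.25. Of the 10 cytosolic genes whose windows held no match 4 were lower, with a median of -0.16 and changes between -0.93 (Farsb) and 0.28 (Qars1). A match is a description of the sequence and not a measured binding site. The E-box CACGTG was in 5 of 17 cytosolic and 1 of 13 mitochondrial windows, beside 6.65% of all.

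Other steps of tRNA charging were called in both directions. Of 6 measured genes 2 were higher and 2 lower, beside 21.9% and 16.9% of all genes. Pstk, the kinase that acts on seryl-tRNA in selenocysteine synthesis, had 10.61, 10.30 and 10.36 on the NA16 arrays, against 8.90, 8.72 and 8.99 on the A16 arrays, and rose by 1.56 ± 0.13 (SE). Mtfmt, which formylates the mitochondrial initiator methionyl-tRNA, rose by 0.87. Qrsl1 and Gatc, subunits of the amidotransferase that makes mitochondrial glutaminyl-tRNA, fell by 1.08 and 1.05, while Gatb, the remaining subunit, changed by 0.29 and was not called. Sepsecs, which completes selenocysteinyl-tRNA, changed by 0.31 and was not called. Of 5 editing factors, which act against errors in the joining of amino acids to tRNA, 2 were higher, beside 21.9% of all genes. Of the 5, 0 were lower. Ankrd16 rose by 0.77 and Prorsd1 by 0.74.

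Of 19 measured genes of tRNA maturation and export 8 were lower (42.1%) and 2 higher (10.5%), beside 16.9% and 21.9% of all genes. The ribonuclease P and MRP subunits Pop4, Pop1 and Pop7 fell by 1.55, 1.21 and 1.01, and Rtcb, the tRNA splicing ligase, fell by 1.05, while Rpp14, a protein found with ribonuclease P, rose by 1.57. Of 28 measured tRNA modification genes 12 were lower (42.9%) and 0 higher. Trmt61a, a catalytic subunit of a tRNA adenosine methyltransferase, had 8.47, 8.69 and 8.71 on the NA16 arrays, against 10.56, 10.37 and 10.78 on the A16 arrays, and fell by 1.88 ± 0.14 (SE). Wdr4, the partner of a tRNA guanosine methyltransferase, fell by 1.63, Thg1l, which adds a guanosine to histidine tRNA, by 1.32, and Ctu2, which takes part in thiolation of the wobble uridine, by 1.28. None of these lists was tested as a set.

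Of the 32 genes 18 had 1 probe set and 14 had several, and 0 of these 14 had probe sets called both higher and lower. When every probe set was tested on its own, 27.5% of 31042 were called. The dimmer probe set of Iars1 was then called lower at -0.36, while its brighter probe set, at -0.15, was not. The dimmer probe set of Gars1 read -1.01, that of Mars1 -0.78 and that of Wars1 -0.62, each further below 0 than the brighter one and none of them called. The dimmer probe set of Vars1 read -0.23 and was not called, nearer 0 than the brighter one. With the probe sets of a gene averaged, Vars1 read -0.56, Farsb -0.56 and Gars1 -0.73, each still called lower.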

How the data were processed

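The values deposited by the authors are linear intensities of 6 arrays, each normalized in Avadis by RMA and again by PLIER after scanning with GeneChip Operating Software. RMA corrects background, equalises arrays and combines the probes of a probe set. All intensities were above 16.0, as if a constant had been added, which the sources do not state. If one was added, changes of dim genes are understated. Log2 was taken of the RMA columns, and PLIER columns were an alternative and no further samples. The labels do not say outright which biological replicate technical replicate 2 repeats, and it was averaged with biological replicate 1. Each gene was represented by its brightest probe set with a single symbol, of 20826 such probe sets. The test of NA16 against A16 was that of limma 3.58.1 (lmFit, eBayes; R 4.3.3), 2-sided, with Benjamini-Hochberg adjustment over 14217 genes, 2 residual and 4.78 prior degrees of freedom. The script was tested on simulated data. The number of arrays limits the precision.

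Members and gene lists were chosen with earlier results of these data known. All members were named. Array values were given for members with a called 2-fold change, with the change nearest 0 in each compartment, or of an amino acid with opposite calls, and for some others chosen after their values were seen. Of each other list at most 4 called genes were named, plus short lists and Atf4, Ddit3 and Asns, and Gatb, Sepsecs and marker genes were added. Lists were described by counts and medians only. Alternatives covered PLIER, the constant, probe set choice, quantile normalization, a filter on dim genes, variance models, the technical replicate, a replicate block, leaving out each replicate and the methods' t-test, and, after the data were seen, the NA16 array of biological replicate 1 and the nearest array. Sequences were from RefSeq, GRCr8.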

Additional observations from a re-analysis of the deposited data

How the results depend on the processing

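No synthetase call reversed. Of the 14 called synthetases 9 kept their call in all 17 alternatives other than the methods' t-test: Farsa, Farsb, Fars2, Hars2, Tars1, Tars2, Vars1, Yars1 and Yars2. Cytosolic genes called lower ranged between 5 and 10, and mitochondrial genes called higher between 3 and 5. The methods' t-test after Benjamini-Hochberg called 13 genes higher and 7 lower, with 0 cytosolic genes lower (0 outside the complex) and 0 mitochondrial genes higher or lower, although 4643 genes and 9 synthetases had an unadjusted p below 0.05. Leaving out a replicate, with the lone sample assumed to vary like the others, gave 3 to 5 mitochondrial genes higher, medians of -0.2642 to -0.2469 (cytosolic) and 0.0354 to 0.2094 (mitochondrial), and 0 to 1 complex enzymes lower. The cytosolic median was -0.25 with PLIER, with PLIER plus 16 (-0.2476) and without technical replicate 2 (-0.2468), and -0.24 with technical replicate 2 joined to its nearest array. Complex enzymes called lower numbered 1 with the mean of all probe sets, 1 with trend and robust variance, 2 with every array as its own replicate, and 1 without the NA16 array of biological replicate 1, which also gave 1 cytosolic and 1 complex enzyme higher and a cytosolic median of -0.289. The cause of these shifts was not tested. With a replicate block 3908 genes were higher, 3111 lower and 2 complex enzymes lower. The numbers are shared by only 2 pairs, whose deviations correlated at 0.557, and were taken as names, not a pairing. In tRNA modification 0 to 4 genes were higher and 7 to 14 lower. Changes near 0 that were called in neither fit took the other sign 18 times. With PLIER, without and with 16 added, Aars2 read 0.1233 and 0.112, Ears2 0.0595 and 0.0523, and Nars2 -0.2714 and -0.2243. Averaging the probe sets of a gene gave -0.0182 for Kars1, and without the NA16 array of biological replicate 1 Aars2 read 0.0877, Vars2 0.0752 and Eprs1 -0.0113. With a replicate left out the ranges were -0.1829 to 0.1326 for Aars2, -0.3672 to 0.2094 for Vars2, -0.2469 to 0.0208 for Cars1, -0.077 to 0.1148 for Eprs1, -0.1129 to 0.0056 for Ears2 and -0.0188 to 0.1643 for Sars1. Changes of dim genes such as Nars2 would be understated if a constant was added, which the sources do not state.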
